A study of Homo sapiens with 10 samples.

Results

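The BCL2 family decides at the mitochondrion whether a cell enters apoptosis, and the RNA levels of 10 of its genes were followed here in VCaP cells after knockdown of a chromatin remodeller. The genes were chosen by name from the 59386 genes listed in each of 10 RNA-seq libraries, and all 10 had enough counts to be tested among 16899 genes. They are the anti-apoptotic genes *BCL2*, *BCL2L1* (BCL-xL) and *MCL1*, the effectors *BAX* and *BAK1*, and the BH3-only genes *BBC3* (PUMA), *PMAIP1* (NOXA), *BID*, *BCL2L11* (BIM) and *BIK*. VCaP is a human prostate cancer cell line with the TMPRSS2-ERG fusion and an androgen receptor. *SMARCA4* (BRG1) is an ATPase of the SWI/SNF complexes and *SMARCA1* (SNF2L) an ATPase of the ISWI complexes, and RNA was sequenced after knockdown of each. *SMARCA4* was targeted with siRNA A and siRNA B and *SMARCA1* with siRNA A and siRNA C, at 30 pmol for 72 h, with 2 libraries for each siRNA and 2 control libraries. This gives 4 *SMARCA4* knockdown, 4 *SMARCA1* knockdown and 2 control libraries, and the labels call the last only control. For the RNA sequencing of these knockdowns the paper names only control cells, while its qPCR and growth panels set the knockdowns beside a control siRNA (siNC). Whether the control libraries here received that siRNA, and at what dose, is not given in the sources used here. The labels number the replicates but do not say that they came from separate cultures, so p-values measure only the spread between these libraries, which may be technical.

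In this family, the anti-apoptotic proteins hold the effectors BAX and BAK1 inactive, and the BH3-only proteins bind into a groove of the anti-apoptotic proteins and free the effectors, which then form pores in the outer mitochondrial membrane. Cytochrome c passes through those pores and starts the caspase cascade. Many members are controlled after transcription, by protein turnover, phosphorylation, cleavage or splicing, which RNA counts per gene do not show. The counts join all transcripts of a gene, so the long and short forms of *BCL2L1*, *MCL1* and *BCL2L11*, which can have opposing roles, cannot be told apart. In bulk RNA, fewer cells with a transcript and less of it per cell cannot be told apart either.

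Libraries held between 23898545 and 34667965 counts, and a gene without counts could still hold up to 3 counts, or 0.0865 to 0.126 CPM (counts scaled to the library total, adjusted by TMM), a limit that covers counting error only. *SMARCA4* was at 242.2 and 267.6 CPM in the controls and at 13.3 to 25.2 CPM in its 4 knockdown libraries. *SMARCA1* was at 32.3 and 31.5 CPM in the controls, at 1.75 to 3.40 CPM in its own knockdown and at 57.4 to 83.8 CPM in *SMARCA4* knockdown. All 12 markers of VCaP prostate epithelium were at 1 CPM or more in every library (summed CPM 9932.9 to 12118.6). Of 6 immune markers, *CD14* was the highest, with 16 to 49 counts, while *PTPRC*, *CD3E*, *CD68* and *NKG7* had at most 2 (*CD68* shares 81.6% of its exon length with another gene on its strand, where its reads may go uncounted), so that the immune sum was 0.597 to 1.82 CPM. The 4 endothelial markers summed to 1.62 to 3.26 CPM, mostly *VWF*, which had 42 to 82 counts. *PECAM1* had 1 to 13 counts and *CDH5* 0 to 2. *KDR* had 0 counts in the controls, 2 to 10 in *SMARCA4* knockdown and 0 to 4 in *SMARCA1* knockdown.

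Part of each promoter is shown for the members that rose in *SMARCA1* knockdown and had a window in the promoter table, so that the shared and unshared letters can be seen beside the values below. The sequences are RefSeq windows on GRCh38.p14, 5′ to 3′ on the strand of the gene, cut to the bases upstream of every exon counted for the gene, and no exon of any listed gene lies in them. They are *PMAIP1* at chr18:59899746-59899995 (plus strand, 250 bases), *BBC3* at chr19:47232767-47232917 (minus strand, 151 bases), *BAK1* at chr6:33580294-33580526 (minus strand, 233 bases) and *BCL2L1* at chr20:31723990-31724213 (minus strand, 224 bases). Capitals mark a match to a searched motif, on either strand.
PMAIP1: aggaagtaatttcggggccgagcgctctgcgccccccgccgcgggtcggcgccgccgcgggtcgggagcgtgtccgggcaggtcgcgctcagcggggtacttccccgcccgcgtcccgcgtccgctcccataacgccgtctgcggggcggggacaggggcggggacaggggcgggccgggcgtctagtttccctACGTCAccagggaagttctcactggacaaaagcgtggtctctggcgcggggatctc
BBC3: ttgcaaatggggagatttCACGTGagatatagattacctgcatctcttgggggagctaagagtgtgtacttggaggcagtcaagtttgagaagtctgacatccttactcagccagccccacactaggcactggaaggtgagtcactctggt
BAK1: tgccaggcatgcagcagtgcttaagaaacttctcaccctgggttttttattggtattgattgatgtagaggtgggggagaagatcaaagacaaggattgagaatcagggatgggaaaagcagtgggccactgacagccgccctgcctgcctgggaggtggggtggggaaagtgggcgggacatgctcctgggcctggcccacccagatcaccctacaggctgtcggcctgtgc
BCL2L1: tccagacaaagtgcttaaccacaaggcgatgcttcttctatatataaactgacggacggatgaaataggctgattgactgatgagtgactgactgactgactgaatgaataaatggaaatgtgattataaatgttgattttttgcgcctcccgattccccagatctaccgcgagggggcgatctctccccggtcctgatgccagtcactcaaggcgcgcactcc

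The capitals in *PMAIP1* are a CRE core (TGACGT, here on the opposite strand), a motif of the ATF and CREB factors, which 7.98% of 35116 RefSeq promoter windows held. Those in *BBC3* are an E-box (CACGTG, 7.26% of windows). The bases of *BAK1* and *BCL2L1* held no match to a searched motif. The search covered 8 of the 10 members, over windows of 250 bases before and 50 after each annotated start, and *MCL1* and *BIK* had no window. An interferon-stimulated response element (ISRE, GAAA and GAAA with any 2 bases between) was found in 3.57% of windows and, among the members, in *BBC3* alone, downstream of the printed bases, where its 2 matches overlapped each other. A gamma-activated site (GAS, TTCNNNGAA) was found in 7.66% of windows and in 0 members. E-boxes were found in *BAX*, *BBC3* and *BID*, and in the printed bases no match to 1 motif overlapped a match to another.

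In both knockdowns, *BCL2L1*, *MCL1* and *PMAIP1* were higher than in the controls. *SMARCA4* knockdown further showed lower *BCL2*, *BID* and *BCL2L11*, and *SMARCA1* knockdown higher *BAK1* and *BBC3*. Of the 10 members, 6 were called in *SMARCA4* knockdown, 3 higher and 3 lower, against 45.1% of all tested genes called there (22.8% higher and 22.3% lower). In *SMARCA1* knockdown 5 were called, all 5 higher, against 46.8% of all tested genes (23.8% higher and 23% lower). Calls are at an adjusted p below 0.05 in edgeR's quasi-likelihood test, with Benjamini-Hochberg adjustment over all 16899 genes. A share of 60% or 50% of the members is thus near the background of the libraries, in which close to every other gene changed. Both knockdowns were compared with the same 2 control libraries, so their values stand side by side and a change seen in both is not an independent repeat. Without control replicate 2, 2 members were called in *SMARCA4* knockdown in place of 6, *BCL2L1* and *PMAIP1*. The median log2 fold change of the members was 0.14 in *SMARCA4* knockdown, beside 0.002 over all tested genes, and 0.54 in *SMARCA1* knockdown, beside −0.004. All knockdown libraries lay above or below both controls for 6 members in *SMARCA4* knockdown (58.5% of all tested genes did so) and for 5 in *SMARCA1* knockdown (58.2% of all tested genes), and these were the members called.

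**Figure D1:**
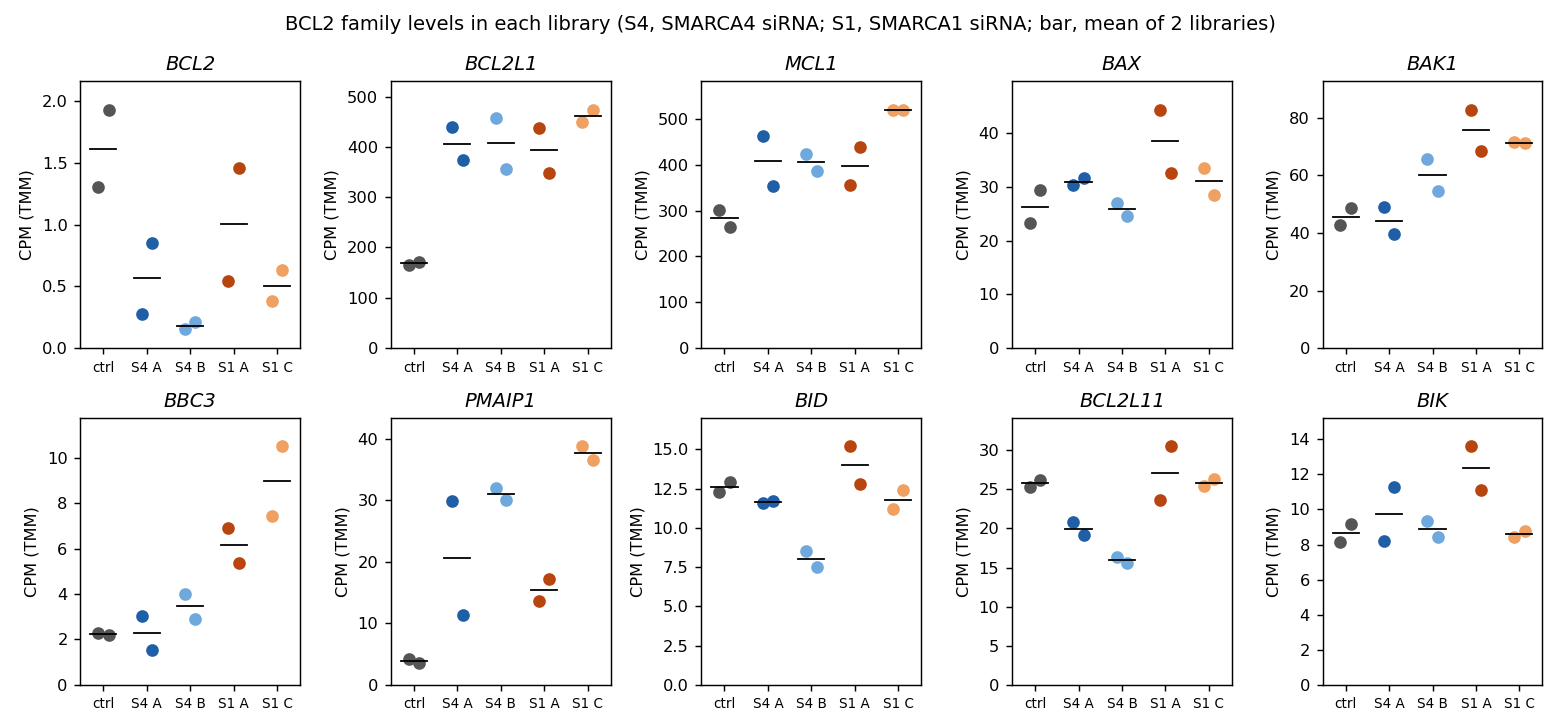
Level of each of the 10 genes (CPM after TMM scaling, linear axes from 0) in the control, *SMARCA4* siRNA A and B and *SMARCA1* siRNA A and C libraries; each point is 1 library and each bar the mean of 2. *BCL2L1*, *MCL1* and *PMAIP1* lie above both controls in all 8 knockdown libraries, and *BAK1* and *BBC3* do so in the 4 *SMARCA1* libraries.

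Among the anti-apoptotic genes, *BCL2*, the founding member of the family and the target of venetoclax, was the lowest of all 10 members in these cells. *BCL2* was at 1.30 and 1.93 CPM in the controls, from 31 and 52 counts. With *SMARCA4* siRNA A it was at 0.279 and 0.849 CPM and with siRNA B at 0.155 and 0.211 CPM, from 5 to 27 counts. With *SMARCA1* siRNA A it was at 0.542 and 1.46 CPM and with siRNA C at 0.384 and 0.629 CPM, from 12 to 36 counts. All 4 *SMARCA4* libraries were below both controls, and 1 *SMARCA1* library (siRNA A replicate 2) fell between them. *BCL2* fell in *SMARCA4* knockdown to 23.1% of the control mean (log2 fold change −2.31 ± 0.49 SE, adjusted p = 0.0038). In *SMARCA1* knockdown the log2 fold change was −1.19 ± 0.45 (SE) and missed the threshold at an adjusted p of 0.052. With all libraries, its adjusted p under the alternatives lay on both sides of the threshold, from 0.00096 without a filter on low counts and 0.0072 with a replicate block to 0.072 with DESeq2 and 0.079 against a minimum fold of 1.2. With other scalings it was 0.044, 0.049 and 0.054. The log2 fold change was −1.59 (adjusted p = 0.013) without *SMARCA1* siRNA A replicate 2 and −0.85 (adjusted p = 0.33) without control replicate 2. In *SMARCA4* knockdown the adjusted p was 0.055 without control replicate 2. The gene spans chr18:63123346-63320128 on the minus strand.

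*BCL2L1* (chr20:31664452-31723989, minus strand) encodes BCL-xL, which guards many epithelial cells, and by splicing the short pro-apoptotic BCL-xS. *BCL2L1* was at 166.0 and 170.9 CPM in the controls. The *SMARCA4* libraries were at 440.4 and 373.0 CPM (siRNA A) and 457.4 and 357.0 CPM (siRNA B). The *SMARCA1* libraries were at 438.5 and 347.6 CPM (siRNA A) and 449.1 and 474.0 CPM (siRNA C). Each of the 8 knockdown libraries was above both controls, and the 2 knockdowns overlapped. It rose 2.42-fold by the means in *SMARCA4* knockdown (log2 fold change 1.27 ± 0.14 SE, adjusted p = 9.5e-05) and 2.54-fold in *SMARCA1* knockdown (1.34 ± 0.14 SE, adjusted p = 0.0001). With any single library left out, the log2 fold change was 1.22 to 1.39 in the former and 1.25 to 1.45 in the latter. An antisense gene, *ABALON*, covers 41.3% of its exon length on the opposite strand but had 86 counts over the 10 libraries, against 108553 for *BCL2L1*, in libraries made with a strand-specific kit. Whether the reads were also counted by strand was not checked. If they were not, reads in the shared bases may go uncounted for both genes.

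*MCL1* (chr1:150560895-150579738, minus strand), whose short-lived protein is the main partner of NOXA, rose less. *MCL1* was at 302.2 and 264.5 CPM in the controls. After *SMARCA4* knockdown its level was 462.9 and 353.8 CPM (siRNA A) and 424.5 and 387.4 CPM (siRNA B). After *SMARCA1* knockdown it was 356.9 and 439.1 CPM (siRNA A) and 520.2 and 519.4 CPM (siRNA C). All 8 knockdown libraries were above both controls, and both libraries of *SMARCA1* siRNA C were the highest of all. The log2 fold change was 0.52 ± 0.13 (SE) in *SMARCA4* knockdown (adjusted p = 0.01) and 0.68 ± 0.14 (SE) in *SMARCA1* knockdown (adjusted p = 0.0027). The first was 0.46 without control replicate 2, with an adjusted p of 0.087.

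The effectors *BAX* and *BAK1* differed from each other. *BAK1* (chr6:33572547-33580293, minus strand), which sits in the mitochondrial membrane in healthy cells, was at 42.7 and 48.6 CPM in the controls. With *SMARCA1* siRNA A it was at 82.8 and 68.4 CPM and with siRNA C at 71.5 and 71.2 CPM. With *SMARCA4* siRNA A it was at 48.9 and 39.5 CPM and with siRNA B at 65.6 and 54.6 CPM. All *SMARCA1* libraries were above every control and every *SMARCA4* library, whereas the *SMARCA4* libraries overlapped the controls. *BAK1* rose in *SMARCA1* knockdown (log2 fold change 0.69 ± 0.13 SE, adjusted p = 0.0025), and its log2 fold change in *SMARCA4* knockdown was 0.18 ± 0.13 (SE, adjusted p = 0.31). Its processed copies *BAK1P1* and *BAK1P2* had at most 9 counts in a library. *BAX* (chr19:48954815-48961798, plus strand), which moves from the cytosol to mitochondria on activation, was between 23.3 and 44.4 CPM in all 10 libraries. Its log2 fold change was 0.10 ± 0.15 (SE, adjusted p = 0.61) in *SMARCA4* knockdown and 0.39 ± 0.15 (SE, adjusted p = 0.056) in *SMARCA1* knockdown. The second passed the threshold with DESeq2 (adjusted p = 0.046), without a filter on low counts (0.027) and without *SMARCA1* siRNA A replicate 2 (0.0045). *SMARCA1* siRNA A replicate 1 was the highest library for both effectors.

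Among the BH3-only genes, *PMAIP1* (chr18:59899996-59904305, plus strand) had the largest fold change of the 10 members in both knockdowns. It encodes NOXA, which binds *MCL1* and sends it to the proteasome, and is a known target of *ATF4* and *ATF3* and of interferon regulatory factors. *PMAIP1* was at 4.22 and 3.53 CPM in the controls. The *SMARCA4* libraries were at 29.9 and 11.3 CPM (siRNA A) and 32.1 and 30.0 CPM (siRNA B), and the *SMARCA1* libraries at 13.6 and 17.2 CPM (siRNA A) and 38.8 and 36.5 CPM (siRNA C). All 8 knockdown libraries were above both controls, and 3 of them, 1 of *SMARCA4* siRNA A and both of *SMARCA1* siRNA A, were well below the other 5. *PMAIP1* rose 6.66-fold by the means in *SMARCA4* knockdown (log2 fold change 2.71 ± 0.35 SE, adjusted p = 0.00023) and 6.84-fold in *SMARCA1* knockdown (2.64 ± 0.35 SE, adjusted p = 0.00033).

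The libraries also differed in interferon response genes, which cells switch on when interferon signals to them. All 25 genes of an interferon response list were called higher in both knockdowns (22.8% and 23.8% of all tested genes were), with median log2 fold changes of 7.46 and 7.83. Their summed level was 401.9 and 410.5 CPM in the controls. It was 34221.2 and 17019.8 CPM with *SMARCA4* siRNA A, 45231.3 and 38110.0 CPM with *SMARCA4* siRNA B, 26690.9 and 24341.3 CPM with *SMARCA1* siRNA A, and 46469.3 and 46827.9 CPM with *SMARCA1* siRNA C. The 3 knockdown libraries with the lowest sums were those with the lowest *PMAIP1*, and the 2 libraries of *SMARCA1* siRNA C were highest in both. The part of the interferon response in the level of *PMAIP1*, or of any other member, was not tested.

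**Figure D2:**
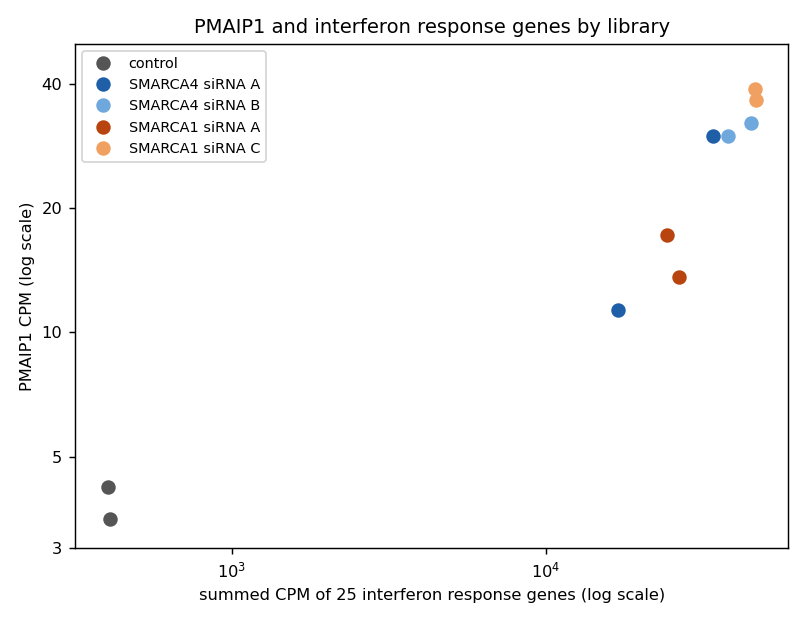
*PMAIP1* (CPM, log scale) against the summed CPM of 25 interferon response genes (log scale), 1 point for each of the 10 libraries, coloured by siRNA. The 2 controls lie at the lower left, and *SMARCA4* siRNA A replicate 2, at 17019.8 and 11.3 CPM, is the lowest of the knockdown libraries on both axes.

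*BBC3* (chr19:47220822-47232766, minus strand) encodes PUMA, which binds all the anti-apoptotic proteins. *BBC3* was at 2.30 and 2.19 CPM in the controls. With *SMARCA1* siRNA A it was at 6.91 and 5.36 CPM and with siRNA C at 7.42 and 10.5 CPM, while with *SMARCA4* siRNA A it was at 3.04 and 1.54 CPM and with siRNA B at 4.02 and 2.88 CPM. The *SMARCA1* libraries were above all others, and the *SMARCA4* libraries lay on both sides of the controls. *BBC3* rose 3.36-fold by the means in *SMARCA1* knockdown (log2 fold change 1.72 ± 0.29 SE, adjusted p = 0.0011). In *SMARCA4* knockdown its log2 fold change was 0.32 ± 0.30 (SE, adjusted p = 0.4).

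*BCL2L11* and *BID* were lower in *SMARCA4* knockdown. *BCL2L11* (chr2:111119378-111168445, plus strand) encodes BIM, a strong activator of *BAX* and *BAK1* that FOXO factors induce and ERK signalling removes. *BCL2L11* was at 25.3 and 26.2 CPM in the controls. It was at 20.8 and 19.1 CPM with *SMARCA4* siRNA A, at 16.4 and 15.6 CPM with *SMARCA4* siRNA B, at 23.6 and 30.5 CPM with *SMARCA1* siRNA A and at 25.4 and 26.3 CPM with *SMARCA1* siRNA C. Every *SMARCA4* library was below every other library, and the *SMARCA1* libraries overlapped the controls. *BCL2L11* fell in *SMARCA4* knockdown (log2 fold change −0.53 ± 0.12 SE, adjusted p = 0.0047). That adjusted p was 0.054 without control replicate 2. In *SMARCA1* knockdown the log2 fold change was 0.04 ± 0.12 (SE, adjusted p = 0.82).

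*BID* (chr22:17734138-17774770, minus strand) links death receptors to mitochondria, since caspase-8 cuts it into its active form. *BID* was at 12.3 and 12.9 CPM in the controls, at 11.6 and 11.7 CPM with *SMARCA4* siRNA A and at 8.53 and 7.54 CPM with *SMARCA4* siRNA B. The *SMARCA1* libraries were at 15.2 and 12.8 CPM (siRNA A) and 11.2 and 12.4 CPM (siRNA C). All *SMARCA4* libraries were below both controls, those of siRNA A by a small margin. *BID* fell in *SMARCA4* knockdown (log2 fold change −0.38 ± 0.12 SE, adjusted p = 0.027), a call that was lost without a filter on low counts (0.097), in a test against a minimum fold of 1.2 (0.15) and in 8 of the 10 fits that left out a library, each control and each *SMARCA4* library among them (0.05 to 0.19). In *SMARCA1* knockdown its log2 fold change was 0.03 ± 0.12 (SE, adjusted p = 0.87).

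*BIK* (chr22:43110750-43129712, plus strand), a BH3-only gene whose protein sits at the endoplasmic reticulum, was between 8.15 and 13.6 CPM in all 10 libraries, and the groups overlapped. Its log2 fold change was 0.10 ± 0.16 (SE, adjusted p = 0.62) in *SMARCA4* knockdown and 0.25 ± 0.16 (SE, adjusted p = 0.23) in *SMARCA1* knockdown.

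**Figure D3:**
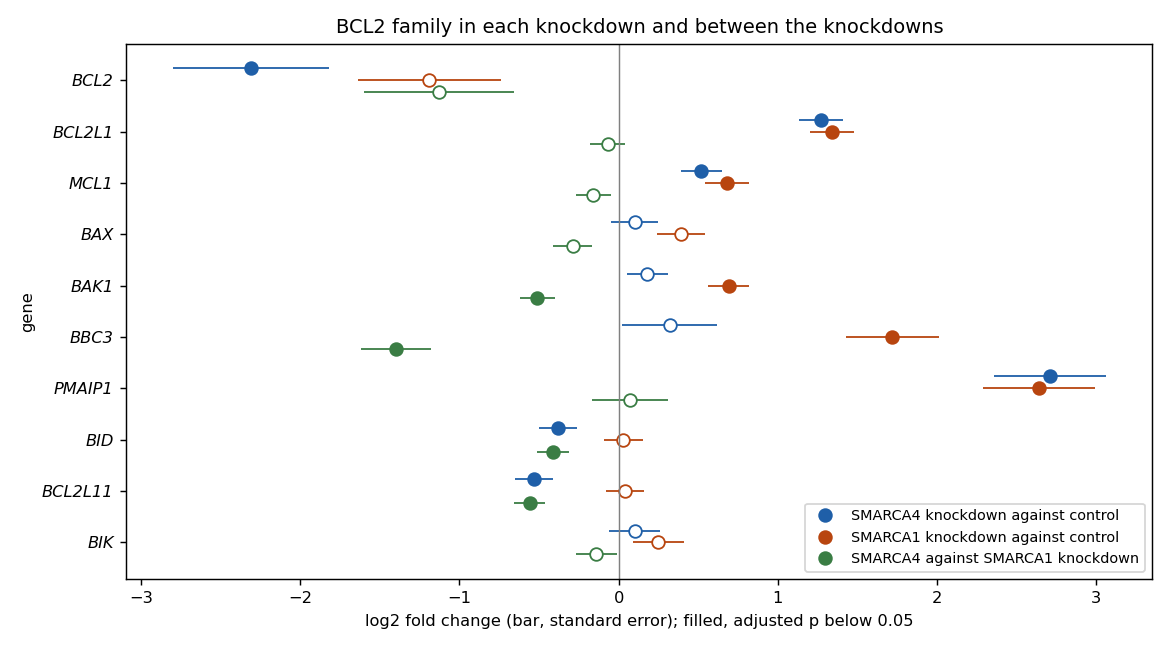
Log2 fold change of each gene in *SMARCA4* knockdown (blue) and *SMARCA1* knockdown (orange) against the same 2 controls, and between the knockdowns (green); bars are standard errors and filled points have an adjusted p below 0.05. *PMAIP1* lies farthest to the right at 2.71 and 2.64, *BCL2* farthest to the left at −2.31, and *BBC3* differs most between the knockdowns among the members called there, at −1.40.

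The knockdowns were then compared with each other, a contrast that leaves out the controls. Of the 10 members, 4 differed, all 4 lower in *SMARCA4* than in *SMARCA1* knockdown, against 35.4% of all tested genes called there (16.3% higher and 19.1% lower in *SMARCA4* knockdown). The 4 are the effector *BAK1* and the BH3-only genes *BBC3*, *BID* and *BCL2L11*. *BBC3* had the largest difference (log2 −1.40 ± 0.22 SE, adjusted p = 0.0011), followed by *BCL2L11* (−0.56 ± 0.10 SE, adjusted p = 0.002). *BAK1* differed by −0.51 ± 0.11 (SE, adjusted p = 0.0051) on the log2 scale and *BID* by −0.41 ± 0.10 (SE, adjusted p = 0.011). The median log2 difference of the members was −0.35, beside −0.013 over all tested genes. For *BAK1*, *BBC3* and *BCL2L11* the libraries of the 2 knockdowns did not overlap (26.7% of all tested genes did not), while for *BID* they did. The *BID* difference had an adjusted p of 0.056 without *SMARCA4* siRNA B replicate 2 and of 0.06 without *SMARCA1* siRNA C replicate 2.

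The 3 anti-apoptotic genes were not called between the knockdowns. *BCL2L1* differed by −0.07 ± 0.11 (SE, adjusted p = 0.67) on the log2 scale, *MCL1* by −0.16 ± 0.11 (SE, adjusted p = 0.27) and *BCL2* by −1.13 ± 0.47 (SE, adjusted p = 0.086). The last passed the threshold without a filter on low counts (0.0046), without *SMARCA4* siRNA A replicate 2 (0.035) and without *SMARCA1* siRNA A replicate 1 (0.031). *PMAIP1* differed by 0.07 ± 0.24 (SE, adjusted p = 0.84), and its sign rested on single libraries: it was −0.35 (adjusted p = 0.049) without *SMARCA4* siRNA A replicate 1 and 0.35 (adjusted p = 0.047) without *SMARCA4* siRNA A replicate 2. *BAX* differed by −0.29 ± 0.12 (SE, adjusted p = 0.089), with an adjusted p of 0.01 without *SMARCA1* siRNA A replicate 2, and *BIK* by −0.14 ± 0.13 (SE, adjusted p = 0.4). The summed level of 6 fibroblast markers was 37.4 to 55.1 CPM in *SMARCA1* knockdown, 24 and 27.7 CPM in the controls and 18.4 to 35.1 CPM in *SMARCA4* knockdown. Their sum was mostly *LUM* (346 to 1220 counts) and *COL1A1* (99 to 581 counts), which rose in *SMARCA1* knockdown by 0.92 ± 0.17 (SE, adjusted p = 0.0019) and 1.21 ± 0.25 (SE, adjusted p = 0.0035) on the log2 scale. *COL1A2* and *COL3A1*, of the same list, fell there: *COL1A2* had 0 to 2 counts in *SMARCA1* knockdown and 15 and 92 in the controls (adjusted p = 0.0069), and *COL3A1* 0 to 3 and 7 and 18 (adjusted p = 0.0094). *DCN* (1 to 20 counts) and *PDGFRB* (3 to 16 counts) were not called, and the part of these markers in the results was not tested.

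Each siRNA was also compared with the controls on its own. *SMARCA4* siRNA A had 3 members called (33.2% of all tested genes were), *BCL2L1*, *MCL1* and *PMAIP1*, all higher. *SMARCA4* siRNA B had 6 (45% of all tested genes), the same 3 and, lower, *BCL2*, *BID* and *BCL2L11*. The log2 fold change of *BCL2* was −1.49 ± 0.55 (SE, adjusted p = 0.059) with siRNA A and −3.13 ± 0.66 (SE, adjusted p = 0.0034) with siRNA B. For *BID* the log2 fold changes were −0.11 ± 0.14 (SE, adjusted p = 0.57) and −0.65 ± 0.14 (SE, adjusted p = 0.0046), and for *BCL2L11* −0.37 ± 0.14 (SE, adjusted p = 0.064) and −0.69 ± 0.14 (SE, adjusted p = 0.0028). The 3 falls in *SMARCA4* knockdown thus passed the threshold with siRNA B and not with siRNA A.

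Compared directly, the 2 *SMARCA4* siRNAs had 0 members called in edgeR's quasi-likelihood test (6.2% of all tested genes were), 4 at an unadjusted p below 0.05 and 1, *BID*, with DESeq2. For *BID*, the log2 difference of siRNA A minus siRNA B was 0.54 ± 0.14 (SE, adjusted p = 0.054). *SMARCA4* itself was at 25.2 and 23.2 CPM (siRNA A) and 18.6 and 13.3 CPM (siRNA B), so the siRNA with the larger falls also left less *SMARCA4* RNA. The summed interferon response genes were also higher with siRNA B (45231.3 and 38110.0 CPM) than with siRNA A (34221.2 and 17019.8 CPM). The part of either difference in the members' levels was not tested, and these siRNAs cannot tell them apart.

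*SMARCA1* siRNA A and siRNA C each had 6 members called (34.8% and 45.3% of all tested genes). *BCL2L1*, *MCL1*, *BAK1*, *BBC3* and *PMAIP1* were higher with both. The other member was *BAX* with siRNA A (log2 fold change 0.55 ± 0.17 SE, adjusted p = 0.033) and *BCL2* with siRNA C (−1.66 ± 0.55 SE, adjusted p = 0.032). With the other siRNA, *BAX* was at 0.24 ± 0.17 (SE, adjusted p = 0.29) and *BCL2* at −0.71 ± 0.52 (SE, adjusted p = 0.32). Between the 2 *SMARCA1* siRNAs, 0 members were called in edgeR's quasi-likelihood test (0.0118% of all tested genes, or 2 genes, were), 3 at an unadjusted p below 0.05 and 1, *PMAIP1*, with DESeq2. The 2 libraries of siRNA A were further apart than those of siRNA C (chi-square per gene 60.6 and 3.8), while the fit used 1 spread for all groups. The lack of calls is therefore not a measure of agreement between these siRNAs. *PMAIP1* rose by 1.99 ± 0.38 (SE, adjusted p = 0.0038) on the log2 scale with siRNA A and by 3.28 ± 0.38 (SE, adjusted p = 0.00018) with siRNA C, and the difference of −1.29 ± 0.34 (SE) had an adjusted p of 0.14. Without control replicate 1, siRNA A had 3 members called in place of 6.

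**Figure D4:**
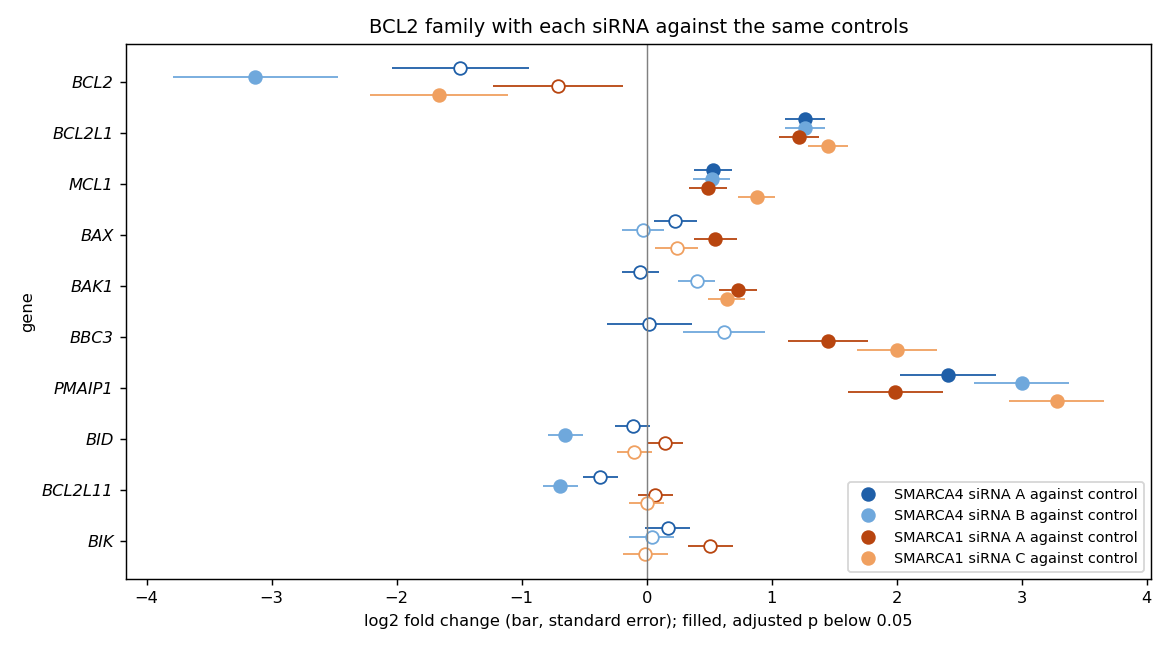
Log2 fold change of each gene with each of the 4 siRNAs against the same 2 controls (bars, standard errors; filled points, adjusted p below 0.05). *BCL2L1*, *MCL1* and *PMAIP1* are filled for all 4 siRNAs, *BAK1* and *BBC3* for both *SMARCA1* siRNAs, and *BID* and *BCL2L11* for *SMARCA4* siRNA B.

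Levels were compared between genes after division by exon length (CPM per kb). In the controls the order was *MCL1* (45.5 ± 4.28), *BCL2L1* (40.1 ± 0.83), *BAK1* (20.6 ± 1.87), *BAX* (10.2 ± 1.68), *BIK* (9.11 ± 0.76), *BCL2L11* (3.87 ± 0.0864), *BID* (2.85 ± 0.0889), *PMAIP1* (1.77 ± 0.225), *BBC3* (0.705 ± 0.024) and *BCL2* (0.128 ± 0.0356), each in CPM per kb (SD, n = 2). Of the neighbours in that order, *BAX* and *BIK* alone had overlapping ranges. By this level *MCL1* stood at percentile 95 of the tested genes and *BCL2* at percentile 10.1. In the knockdowns *BCL2L1* came first, at 97 ± 11.8 CPM per kb (SD, n = 4) in *SMARCA4* and 101.8 ± 13.2 (SD, n = 4) in *SMARCA1* knockdown, and its range did not overlap that of *MCL1* in the former but did in the latter. That order rests on the exon lengths used. Without division by length, mean *MCL1* and *BCL2L1* were 407.1 and 407.0 CPM in *SMARCA4* and 458.9 and 427.3 CPM in *SMARCA1* knockdown. *PMAIP1* went from the eighth place to the fourth in *SMARCA4* knockdown (11.8 ± 4.46 CPM per kb, SD, n = 4) and the fifth in *SMARCA1* knockdown (12.1 ± 5.93 CPM per kb, SD, n = 4), where it overlapped *BAX* in both.

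Summed over the 10 genes, this level was 134.4 and 135.5 CPM per kb in the controls and 198.9 to 275.6 CPM per kb in the 8 knockdown libraries. The anti-apoptotic genes made up 65.7% and 61.5% of the sum in the controls, 70.5% to 74% in *SMARCA4* knockdown and 65.8% to 71.3% in *SMARCA1* knockdown. The effectors made up 21.1% and 24.6% in the controls, 14% to 16.4% in *SMARCA4* knockdown and 15.7% to 22.2% in *SMARCA1* knockdown. The BH3-only genes stayed between 11.6% and 13.9% in all 10 libraries, while within them *PMAIP1* went from 1.44% and 1.19% of the family's sum in the controls to between 2.53% and 6.56% in the knockdowns. The ratio of *MCL1* to *BCL2L1* per kb, whose size depends on the exon lengths, was 1.23 and 1.04 in the controls. It was between 0.549 and 0.852 in the knockdown libraries, below both controls in all 8. These are shares of RNA and not of protein.

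**Figure D5:**
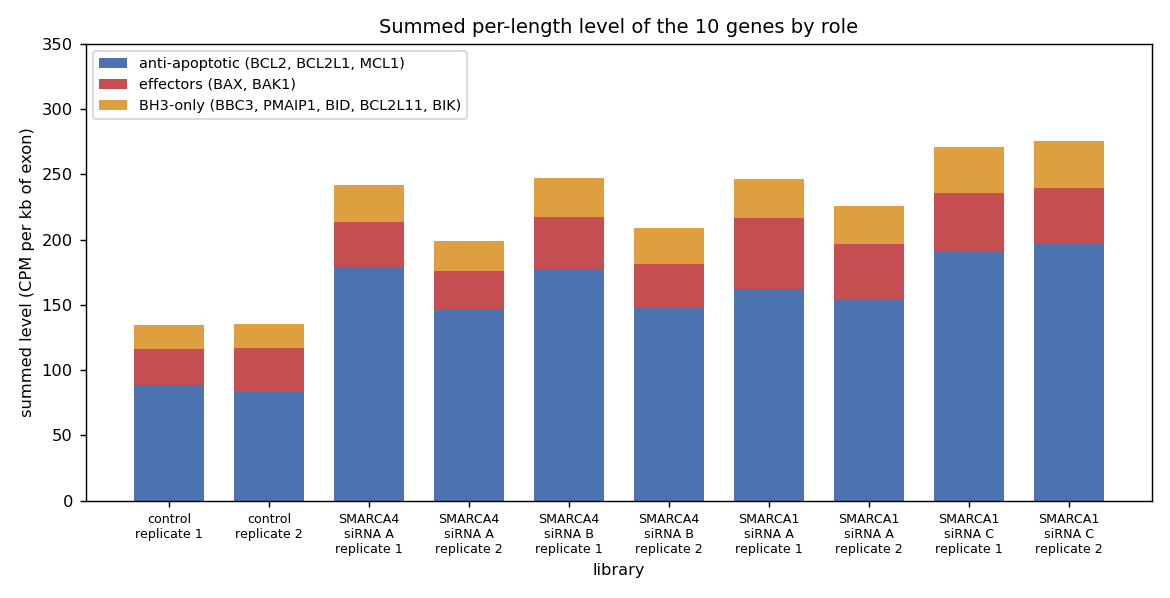
Summed level of the 10 genes (CPM per kb of exon, stacked bars from 0) in each library, split into anti-apoptotic genes, effectors and BH3-only genes. The controls reach 134.4 and 135.5 and the knockdown libraries 198.9 to 275.6, and most of the added height is in the anti-apoptotic genes.

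Around these 10 genes, the other members of the wider family were read from a list of 13, of which *BCL2A1*, *HRK* and *BNIP3L* did not pass the filter on low counts. Of the 10 tested, 5 rose, 2 fell and 3 were not called in *SMARCA4* knockdown, and 3 rose, 1 fell and 6 were not called in *SMARCA1* knockdown (median log2 fold changes 0.30 and 0.26, beside 0.002 and −0.004 over all tested genes). Over all tested genes, 45.1% were called in *SMARCA4* and 46.8% in *SMARCA1* knockdown. *BCL2L14* (BCL-G) rose from a mean of 0.334 CPM in the controls to 9.43 ± 5.18 CPM (SD, n = 4) in *SMARCA4* and 16.4 ± 9.12 CPM (SD, n = 4) in *SMARCA1* knockdown, with log2 fold changes of 4.66 ± 0.53 (SE, adjusted p = 0.00011) and 5.41 ± 0.52 (SE, adjusted p = 6.7e-05). Its control level was below the filter on low counts, so it was kept for testing only through its knockdown libraries. The sizes of its changes are therefore uncertain. *BCL2L15*, among the 5 that rose in *SMARCA4* knockdown, was kept in the same way, with means of 0.0186 CPM in the controls and 0.273 CPM in that knockdown. Since the filter kept both genes through the libraries where they were high, their calls are no support for a rise in the wider family. *BCL2L13*, which acts in mitophagy, rose by 1.42 ± 0.17 and 1.21 ± 0.17 (SE) on the log2 scale. *BMF*, a BH3-only gene whose protein is held at the cytoskeleton, rose by 0.58 ± 0.19 (SE, adjusted p = 0.033) in *SMARCA4* and 1.39 ± 0.20 (SE, adjusted p = 0.00049) in *SMARCA1* knockdown. *BNIP3*, a hypoxia-induced mitophagy receptor, fell in both, with log2 fold changes of −0.69 ± 0.13 (SE, adjusted p = 0.0015) and −0.71 ± 0.13 (SE, adjusted p = 0.0014).

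Downstream of the mitochondrion, 18 apoptosome, caspase and IAP genes were tested. In *SMARCA4* knockdown 6 rose, 9 fell and 3 were not called, and in *SMARCA1* knockdown 5 rose, 6 fell and 7 were not called (medians −0.34 and −0.22, beside 0.002 and −0.004 over all tested genes). Of all tested genes, 22.8% rose and 22.3% fell in *SMARCA4* and 23.8% rose and 23% fell in *SMARCA1* knockdown. *BIRC3* (cIAP2), an inhibitor of apoptosis that NF-κB induces, rose by 3.65 ± 0.35 (SE, adjusted p = 4.2e-05) and 3.60 ± 0.35 (SE, adjusted p = 6.9e-05) on the log2 scale. *CYCS*, which encodes cytochrome c, fell in both (−1.17 ± 0.09 SE, adjusted p = 1.5e-05 in *SMARCA4* and −0.58 ± 0.09 SE, adjusted p = 0.00085 in *SMARCA1* knockdown). *XIAP*, a direct caspase inhibitor, also fell in both (−0.50 ± 0.18 SE, adjusted p = 0.043 and −1.07 ± 0.18 SE, adjusted p = 0.001). *DIABLO*, an antagonist of these inhibitors, shares 31.5% of its exon length with other genes on its strand and its counts are uncertain.

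Of 12 integrated stress response genes, *ATF4* among them, 8 rose and 4 were not called in *SMARCA4* knockdown. In *SMARCA1* knockdown 10 rose and 2 were not called, with 0 lower in either knockdown (medians 0.76 and 0.77, beside 0.002 and −0.004 over all tested genes). Over all tested genes, 22.8% rose and 22.3% fell in *SMARCA4* and 23.8% rose and 23% fell in *SMARCA1* knockdown. Not called in *SMARCA4* knockdown were *DDIT3* (log2 fold change 0.02), *TRIB3* (0.01), *ASNS* (0.22) and *DDIT4* (−0.14). *DDIT3* and *ASNS* were not called in *SMARCA1* knockdown either. *CHAC1* rose by 2.28 ± 0.32 and 2.14 ± 0.32 (SE) on the log2 scale, *ATF3* by 2.08 ± 0.19 and 2.06 ± 0.19 (SE) and *PPP1R15A* (GADD34) by 1.96 ± 0.14 and 1.78 ± 0.14 (SE). *ASNS*, in this list, shares 49.3% of its exon length with another gene on its strand. Of 15 tested genes for the turnover and transcription of *MCL1*, BIM and NOXA (*TRIM17* did not pass the filter), 5 rose, 3 fell and 7 were not called in *SMARCA4* knockdown, and 6 rose, 2 fell and 7 were not called in *SMARCA1* knockdown (medians 0.15 and 0.14). The shares and medians of all tested genes given for the stress response list stand beside these too. *IRF1*, an interferon regulatory factor, rose by 3.27 ± 0.26 and 3.36 ± 0.26 (SE). *IRF3* rose by 0.52 ± 0.15 in *SMARCA4* and 0.90 ± 0.15 (SE) in *SMARCA1* knockdown, and *MARCHF5*, a mitochondrial ubiquitin ligase, by 0.42 ± 0.11 and 0.76 ± 0.11 (SE). *E2F1* fell in both, with log2 fold changes of −0.76 ± 0.11 and −0.37 ± 0.11 (SE).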

How the data were processed

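Poly(A)-selected RNA of 10 VCaP libraries was sequenced with a directional kit. The deposited files hold raw counts per gene symbol, which the authors made, without normalization, with HISAT2 2.1.0 and featureCounts 1.5.2 on hg38 according to the submitters' processing notes. Groups and replicate numbers were taken from the labels. Depth was 23898545 to 34667965 counts. Counts of replicates were further apart than sampling noise allows, and each library was counted on its own. The chi-square per gene was 6.39 for the controls, 42.9 and 22.6 for *SMARCA4* siRNA A and B, and 60.6 and 3.8 for *SMARCA1* siRNA A and C.

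Genes were kept by filterByExpr (minimum count 10, minimum total 15), scaled by TMM and fitted with edgeR 4.0.16 (glmQLFit, glmQLFTest; limma 3.58.1, R 4.3.3) to 5 groups. A knockdown is the mean of its 2 siRNA groups against control, a standard error is the log2 fold change divided by the root of F, and p-values were adjusted over 16899 genes by Benjamini-Hochberg. CPM used TMM-scaled totals, and CPM per kb the exon length in the files. Positions are those of the count files (GRCh38), and promoters are RefSeq windows of GRCh38.p14. The model was tested on simulated data drawn with the same spread per gene in every group. The real groups differed in the spread between their replicates, so that test does not cover this difference. Members and lists were chosen with earlier results of these data known. All 10 members are named, with, for each list and knockdown, the 3 called genes of largest change at a mean of at least 1 CPM, the interferon list being given by its sum and counts. Some genes that this rule picks, and 1 list, are not reported here. Marker genes, list genes with shared exons, stress response genes that were not called and list genes that were not tested were named after their values were seen. Alternatives were DESeq2 1.42.0, other scalings and filters, a replicate block, a minimum fold, fewer libraries in the fit and each library left out, and for single siRNAs they were added after the data were seen.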

Additional observations from a re-analysis of the deposited data

Results flagged for a closer look

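*PMAIP1* was at 11.3 CPM in *SMARCA4* siRNA A replicate 2, and the other 3 *SMARCA4* libraries were at 29.9 to 32.1 CPM. The gap took 0.893 of the range of these 4 libraries, above Dixon's limit for 4 samples. It was the only one of 20 groups (10 genes in 2 knockdowns) to pass that limit, and chance passes about 1 in 20. The same library had the lowest sum of interferon response genes of the knockdown libraries (17019.8 CPM), and the part of that in its *PMAIP1* level was not tested.

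The effects of the 2 knockdowns differed, in a direct test between them (edgeR, adjusted over all genes), for 4 members. With *SMARCA1* knockdown as the reference, *BBC3* in *SMARCA4* knockdown was at −1.40 on the log2 scale (adjusted p = 0.0011), *BCL2L11* at −0.56 (0.002), *BAK1* at −0.51 (0.0051) and *BID* at −0.41 (0.011).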

How the results depend on the processing

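Of 550 log2 fold changes of members under an alternative, 507 kept their direction and their side of the threshold, 15 lost the call, 18 gained one and 10 changed sign. The log2 fold changes of *BCL2L1* and *PMAIP1* against control were called under every alternative run. *BID* in *SMARCA1* knockdown was −0.0005 with upper-quartile scaling. With a library left out, the lowest and highest values were −0.02 and 0.31 for *BAX* in *SMARCA4* knockdown, −0.04 and 0.11 for *BID* and −0.03 and 0.12 for *BCL2L11* in *SMARCA1* knockdown, and −0.14 and 0.03 for *BCL2L1* and −0.35 and 0.35 for *PMAIP1* between the knockdowns. Members called ranged from 2 to 6 in *SMARCA4* knockdown, 5 to 7 in *SMARCA1* knockdown, 3 to 6 between the knockdowns, 0 to 3 between the *SMARCA4* siRNAs, 0 to 2 between the *SMARCA1* siRNAs, 2 to 5 for *SMARCA4* siRNA A, 5 to 7 for siRNA B, 3 to 7 for *SMARCA1* siRNA A and 4 to 6 for siRNA C. All genes called ranged from 4413 to 9183, from 4430 to 9557 and from 3683 to 8072 in the 3 knockdown comparisons, lowest without control replicate 1 in the first 2 and without *SMARCA1* siRNA C replicate 1 in the third. Without control replicate 2 they were 4913 and 5094, and without *SMARCA4* siRNA B replicate 2 the third was 3839. Between the *SMARCA4* siRNAs, DESeq2 called 1 member and the fit without a filter 3 (*BAK1*, *BCL2* and *PMAIP1*), and between the *SMARCA1* siRNAs each called 1 (*PMAIP1*). The highest counts of members came without *SMARCA1* siRNA A replicate 2 for both siRNA pairs, and for *SMARCA4* siRNA A without either *SMARCA1* siRNA A library. The causes of these changes were not tested.

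The labels do not say that replicate numbers mark a shared culture or day. Deviations of replicate 1 from its group mean correlated between groups at −0.103 to 0.362, so the numbers were not taken as pairs. With a replicate block, 6 members were called in each knockdown and 5 between them, where *BCL2* was added in *SMARCA1* knockdown (−1.22, adjusted p = 0.0072) and between the knockdowns (−1.12, adjusted p = 0.018). With the block, all genes called were 7788, 8011 and 6247. *BCL2*, with 5 to 52 counts, is the member whose values depth limits most.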

Other observations

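*PMAIP1* had the largest fold change of the members in both knockdowns, and the genes whose log2 CPM followed it most closely over the 10 libraries were *EHD4* (Pearson r = 0.997), *MAP3K8* (r = 0.995) and *BLZF1* (r = 0.995). *EHD4*, an endocytic ATPase, had means of 54.3 CPM in the controls, 183.9 CPM in *SMARCA4* and 174.4 CPM in *SMARCA1* knockdown. *MAP3K8*, a kinase upstream of ERK, had means of 0.495, 4.15 and 4.28 CPM, and *BLZF1*, a Golgi protein gene, 24.3, 111.2 and 107.6 CPM. Among all tested genes, 873 had an r above 0.9 with *PMAIP1*. The points share their libraries and fall into controls and knockdowns, so these values only describe the 10 libraries.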
